A study of Mus musculus with 21 samples.

Results

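The genes described are those of the cytosolic ribosome: the large-subunit (Rpl and Rplp) and small-subunit (Rps, Rpsa and Rack1) ribosomal protein genes of the mouse, taken by gene symbol and without pseudogenes named -ps or the Rps6k kinases. The symbol rule found 83 genes, 50 of the large and 33 of the small subunit, among 31553 genes listed for cultured cells and 39008 listed for mouse cortex. In each of the tables, 81 of the 83 passed the filter on low values and were tested. Rps4l and Rpl32l fell below it in the cells, and Rpl39l and Rpl32l in the cortex. Rpl32l, Rpl6l and Rps4l carry plain symbols but are annotated as pseudogenes, and 6 further ribosomal protein genes lie outside the rule by their names, among them Rps3a1, Fau, Rpl22l1, Rpl36al and Rpl7l1.

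The study used CRISPR activation (CRISPRa), in which a catalytically dead Cas9 (sadCas9) fused to the transcriptional activator VP64 is guided to a gene by an sgRNA, to raise Scn2a, which encodes a neuronal voltage-gated sodium channel. Polyadenylated RNA was sequenced from 21 samples. Neuro2a, a mouse neuroblastoma cell line, received plasmids for the Scn2a sgRNA and for sadCas9-VP64 at 750 ng each (CRISPRa, 6 libraries) or the sadCas9-VP64 plasmid without an sgRNA (VP64 only, 6 libraries), so that the controls carry the activator too. The library names place replicates 4 to 6 of both groups in a set numbered 8 and replicates 1 to 3 in a set numbered 7. What else separated the sets is not given in the sources used here. The mouse libraries are Scn2a+/- mice injected with rAAV for the Scn2a sgRNA and sadCas9-VP64 (Het CRISPRa), Scn2a+/- mice with no treatment in their labels (Het) and wild-type mice (WT), with 3 libraries each, all on a C57BL/6J background. A volume of 500 nL, with both viruses in equal parts, went into the medial prefrontal cortex. Nuclei were taken from 200 mg of cortex 4 weeks later and sorted for NeuN, so the mouse values are of nuclear RNA from a piece of tissue that need not have been transduced throughout. The labels do not say that the replicates came from separate cultures, so a p-value here reflects how these libraries spread and no more.

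Depth was 15527000 to 20967000 reads in Neuro2a and 15542000 to 20103000 in cortex. Levels are given in CPM, the reads of a gene scaled to a common library total. Scn2a stood at 4.09 to 5.02 CPM in CRISPRa, against 2.86 to 3.16 CPM in VP64 only within set 8, and at 4.53 to 5.34 CPM in CRISPRa, against 2.84 to 3.46 CPM in VP64 only within set 7. In cortex it stood at 258 to 291 CPM in Het CRISPRa, 203 to 260 CPM in Het and 230 to 266 CPM in WT. Neuro2a libraries carried the neuroblastoma transcript Hand2 (324 to 380 CPM), with Rbfox3, the gene for NeuN, at no more than 0.382 CPM. Cortical nuclei carried Rbfox3 at 260 to 358 CPM, Slc17a7 at 895 to 1066 CPM and Snap25 at 709 to 862 CPM.

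The cytosolic ribosome joins a small subunit, which reads the mRNA, to a large subunit, which forms the peptide bond. Cells make the ribosomal proteins in near equal numbers and degrade those that are not assembled. Their mRNAs are short and abundant in growing cells and begin with a terminal oligopyrimidine (TOP) tract, a C followed by further pyrimidines, through which the mTOR pathway sets their translation. In neurons most cytosolic ribosomes sit outside the nucleus, as do the mRNAs that encode their proteins.

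The tract is visible in the reference sequence at the annotated starts of several members the results turn on. RefSeq's table of promoters on GRCm38.p6 held 73 windows for 61 of the members, each of 250 bases before and 50 bases after a start. A C followed by 4 bases that are each C or T stood exactly at the start in 15 of the 73 windows (20.5%), against 2.51% of all 32851 windows in the table. When a shift of up to 5 bases either way was allowed, it stood in 32 windows of 30 genes (43.8%), against 18.3% of all windows. Below, 15 bases before and 15 bases from the start onward are given 5′ to 3′ on the gene's own strand. Capitals mark the longest run of C and T that opens with C within 5 bases of the start. Rack1, Rps6, Rpl15 and Rps27 show such a run. Rps26 has it just past the start, Rps27l has a short one at the first of its 2 annotated starts and none at the second (chr9:66946398-66946427), and Rps25 and Rps4x have none that meets the rule.
Rack1, chr11:48800345-48800374, plus strand: cggaggccgctCTTTCTTTTTCTCCacagg
Rps6, chr4:86857353-86857382, minus strand: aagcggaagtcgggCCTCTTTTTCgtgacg
Rpl15, chr14:18270972-18271001, minus strand: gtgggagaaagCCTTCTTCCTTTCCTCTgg
Rps27, chr3:90213634-90213663, minus strand: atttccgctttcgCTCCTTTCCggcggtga
Rps26, chr10:128626492-128626521, minus strand: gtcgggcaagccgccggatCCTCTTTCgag
Rps27l, chr9:66946071-66946100, plus strand: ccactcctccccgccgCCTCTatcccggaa
Rps25, chr9:44407699-44407728, plus strand: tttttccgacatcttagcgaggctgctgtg
Rps4x, chrX:102189377-102189406, minus strand: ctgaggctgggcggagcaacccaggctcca

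The tract was searched on the sense strand, and 3 further motifs were searched on both strands of the whole window. CCGGAAG, a core of the sites bound by ETS-family factors, stood in 35.6% of the members' windows against 8.86% of all windows. AAGATGGC, a core of the sites bound by YY1, stood in 9.59% against 2.75%, and TATAAA, the TATA box, in 9.59% against 13.6%. The members lie on 19 chromosomes, with at most 14 on any one.

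In Neuro2a the summed members took a smaller share of the library in every CRISPRa library than in any VP64-only library of the same set. Set 8 stood above set 7 in both groups. In set 8 the share was 6.84, 7.13 and 6.91% in CRISPRa, against 7.53, 7.39 and 7.65% in VP64 only. In set 7 it was 5.18, 5.22 and 5.10% in CRISPRa, against 6.31, 6.15 and 5.89% in VP64 only. The groups did not overlap within a set, but over both sets CRISPRa libraries of set 8 stood above VP64-only libraries of set 7. The CRISPRa share averaged 6.96 ± 0.151% against 7.52 ± 0.130% in set 8, and 5.17 ± 0.0585% against 6.12 ± 0.212% in set 7 (SD, n = 3 libraries each). CPM is relative, so a smaller share need not mean a lower amount per cell. In bulk samples, fewer cells that express a gene and less RNA per cell cannot be told apart either.

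**Figure D1:**
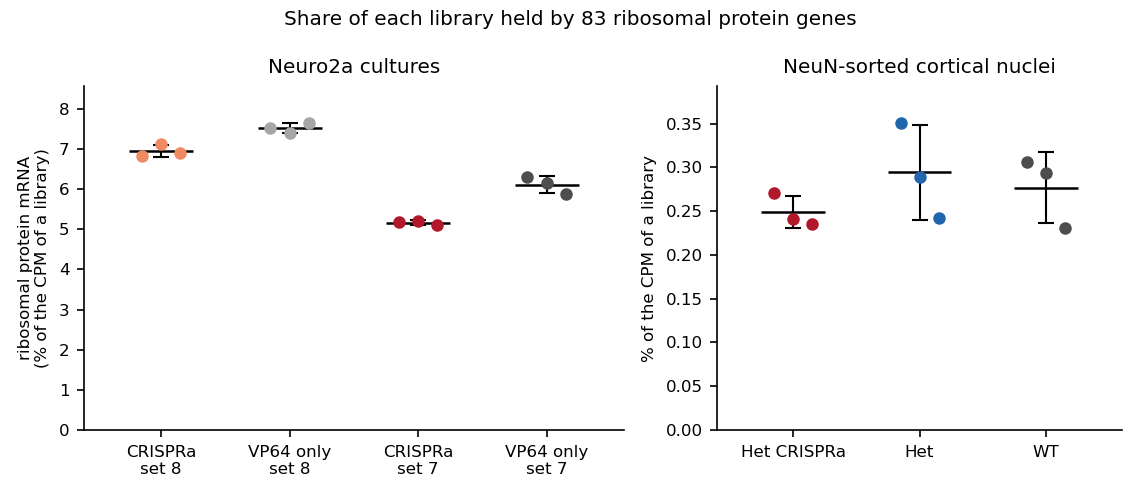
Share of each library's CPM held by the 83 ribosomal protein genes, in percent, with 1 point per library and lines and whiskers for the mean and SD of 3; Neuro2a and cortex have their own axes. CRISPRa lies below VP64 only within each Neuro2a set (means 6.96 against 7.52% in set 8, and 5.17 against 6.12% in set 7), and the 3 cortical groups overlap between 0.230 and 0.351%.

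The CPM of the large-subunit members was 1.52 to 1.54 times that of the small-subunit members in CRISPRa, against 1.54 to 1.56 times in VP64 only of set 8, and 1.53 to 1.54 times in CRISPRa, against 1.55 to 1.56 times in VP64 only of set 7. Each CRISPRa library of set 7 lay below each VP64-only library of that set, and the groups of set 8 overlapped. Members agreed closely between replicates, with a median coefficient of variation of 2.98% in CRISPRa and 2.40% in VP64 only of set 8, and of 2.59% in CRISPRa and 3.88% in VP64 only of set 7. Within each set, transcripts encoded by mitochondrial DNA took a larger share in CRISPRa, where the members took a smaller one. The mitochondrial share was 1.05 to 1.36% of CRISPRa libraries and 0.884 to 0.999% of VP64-only libraries in set 8. In set 7 it was 1.32 to 1.42% of CRISPRa and 0.786 to 0.974% of VP64-only libraries. Between the sets, both VP64-only means were lower in set 7 than in set 8 (mitochondrial 0.857 against 0.949%, members 6.12 against 7.52%). RNAs retained in the nucleus took 0.0134 to 0.0163% of CRISPRa libraries, against 0.0108 to 0.0125% of VP64-only libraries over both sets, without overlap. Among them Malat1 rose by 0.48 and Neat1 by 1.16 on the log2 scale in the pooled comparison (limma adjusted p = 0.000183 and 0.0177). The sadCas9-VP64 transcript itself was also uneven, at 564 to 632 CPM in CRISPRa, against 318 to 370 CPM in VP64 only of set 8, and at 1683 to 2154 CPM in CRISPRa, against 2497 to 2646 CPM in VP64 only of set 7. A transgene named mCherry_puro had 1574 to 1927 CPM in CRISPRa of set 8 and 4626 to 5782 CPM in CRISPRa of set 7, and was listed at 0 in each VP64-only library. The part of these in the members' values was not tested.

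When both sets were pooled (6 libraries against 6), 2 of 81 members were lower in CRISPRa (2.47%) and none was higher. Of all 14398 genes tested, 5.02% were lower and 10.0% higher; a call is a Benjamini-Hochberg adjusted p under 0.05 in limma on log2(CPM + 0.5). Although few were called, 80 of the 81 log2 differences lay below 0. An unadjusted limma p under 0.05 was reached by 18 members (22.2%), a smaller share than the 4364 of all 14398 genes. The members' median difference was -0.16, a level 10.4% lower in CRISPRa, where the median over all genes was 0.06. Leaving out 1 library gave 1 call for each of CRISPRa replicates 1, 2 and 3 and VP64-only replicates 1, 2, 4, 5 and 6, and 3 calls without CRISPRa replicate 4.

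Rps26 (ENSMUSG00000025362), a small-subunit protein at the mRNA exit channel, was called. It had 622, 676 and 652 CPM in CRISPRa, against 772, 749 and 749 CPM in VP64 only within set 8. Within set 7 it had 586, 589 and 589 CPM in CRISPRa, against 688, 683 and 690 CPM in VP64 only. Rps26 alone among the members (1.23%) did not overlap between the pooled groups, against 3.01% of all genes apart in that direction. Its means were 619 ± 38.1 CPM in CRISPRa, against 722 ± 39.1 CPM in VP64 only (SD, n = 6 each), and it fell by 0.22 on the log2 scale (SE 0.06, limma adjusted p = 0.017).

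Rps25 (ENSMUSG00000009927), a small-subunit protein needed for initiation from several viral internal ribosome entry sites, was the other. It had 565, 578 and 539 CPM in CRISPRa, against 623, 616 and 644 CPM in VP64 only of set 8. In set 7 it had 496, 496 and 508 CPM in CRISPRa, against 582, 592 and 562 CPM in VP64 only. The pooled groups overlapped because the CRISPRa library at 578 CPM stood above the VP64-only library at 562 CPM. Rps25 fell by 0.19 (SE 0.06, limma adjusted p = 0.0385). Its limma call was lost without a filter (adjusted p = 0.0949), with quantile scaling (0.0805), without a variance trend (0.0616) and without any 1 of 9 of the 12 libraries, the largest adjusted p being 0.0902.

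The number of calls depended on how the sets entered the fit. With the replicate number as a block, which tracks the set, 52 members were lower in CRISPRa, and with the set itself as a covariate 60 were, the 52 among them. The authors' deposited table, made with DESeq2, calls 5 of the members lower in CRISPRa: Rps25 (log2 fold change -0.24), Rps26 (-0.28), Rps2 (-0.21), Rpl3 (-0.43) and Rpl31 (-0.22). There, 6.6% of all listed genes are called lower and the members' median log2 fold change is -0.21.

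Within set 8, 39 of 81 members were lower in CRISPRa and none was higher, against 10.4% of all genes called lower and 14.4% called higher. They comprised 23 of 49 large-subunit and 16 of 32 small-subunit members. The members' median log2 difference was -0.11, a level 7.3% lower, against 0.02 over all genes, and 73 members lay below 0. In 48 members each CRISPRa library stood below each VP64-only library (16.5% of all genes). The calls came to 24 without CRISPRa replicate 4 and 25 without VP64-only replicate 6. They came to 24 without a filter, 23 without a variance trend and 17 with quantile scaling, under which 12.6% of all genes were called lower.

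Within set 7, 73 of 81 members were lower, 45 of 49 of the large and 28 of 32 of the small subunit, and 1, Rps27l, was higher. The background was 17.0% of all genes lower and 29.7% higher. The members' median was -0.22, or 14.2% lower, against 0.09 over all genes. In 73 members the CRISPRa libraries lay wholly below the VP64-only libraries, against 19.6% of all genes, and in 1 wholly above, against 34.6%. Set 7 and set 8 share no library, but their tests share an estimate of the spread. In both sets 38 members were lower (5.82% of all genes were). That is 97.4% of those lower in set 8, against 90.1% of all tested members lower in set 7. It is 52.1% of those lower in set 7, against 48.1% of all tested members lower in set 8. For all genes the shares were 55.8% and 34.3%, against 17.0% lower in set 7 and 10.4% in set 8.

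**Figure D2:**
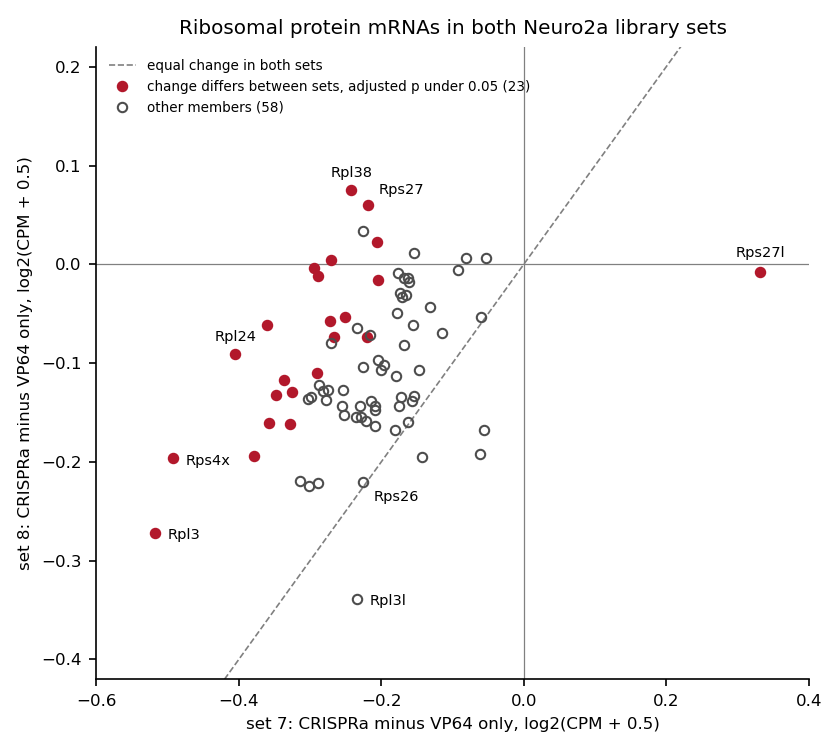
Each point is 1 of the 81 tested members, with its difference between CRISPRa and VP64 only on log2(CPM + 0.5) in set 7 (across) and in set 8 (upward); filled points are the 23 whose change differed between the sets in limma, and the dashed line marks equal changes. Most points lie below 0 on both axes and nearer to 0 in set 8 (median -0.11) than in set 7 (median -0.22), while Rps27l stands alone at 0.33 in set 7.

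Among large-subunit members, Rpl3, which helps shape the peptidyl transferase centre, had the smallest p in both sets. It had 1403, 1384 and 1419 CPM in CRISPRa, against 1666, 1669 and 1745 CPM in VP64 only of set 8. Set 7 gave 927, 914 and 927 CPM in CRISPRa, against 1340, 1375 and 1253 CPM in VP64 only. No library overlapped within a set, and the set 8 CRISPRa libraries stood above the set 7 VP64-only libraries. It fell by 0.27 in set 8 (SE 0.04, limma adjusted p = 3.8e-05) and by 0.52 in set 7 (SE 0.04, limma adjusted p = 2.53e-09). With quantile scaling the difference in set 8 was -0.11 (limma adjusted p = 0.0431).

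Rpl5 and Rpl11 form the 5S ribonucleoprotein particle with 5S rRNA, which joins the large subunit and, when unassembled, binds Mdm2. Rpl5 had 2045, 2178 and 2042 CPM in CRISPRa against 2354, 2274 and 2374 CPM in VP64 only of set 8, and 1378, 1323 and 1356 CPM in CRISPRa against 1781, 1747 and 1675 CPM in VP64 only of set 7. The groups lay apart in both sets, and it fell by 0.16 in set 8 (limma adjusted p = 0.00647) and by 0.36 in set 7 (5.63e-07), where quantile scaling gave -0.21. Rpl11 fell by 0.22 in set 8 (limma adjusted p = 0.000775) and by 0.29 in set 7 (1.77e-05).

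Rpl10, a late-joining protein near the tRNA path, had 1827, 1820 and 1777 CPM in CRISPRa, against 2067, 2084 and 2165 CPM in VP64 only of set 8. In set 7 it had 1360, 1365 and 1352 CPM in CRISPRa, against 1751, 1684 and 1637 CPM in VP64 only. The groups lay apart in each set; Rpl10 fell by 0.22 in set 8 (limma adjusted p = 0.000265) and by 0.31 in set 7 (1.39e-06). With quantile scaling its difference was -0.011 in set 8 (limma adjusted p = 0.879), which is no call, and -0.18 in set 7. Also among the 12 calls with the smallest p in set 8 were Rpl28 (-0.22), Rpl22 (-0.19), Rpl15 (-0.17) and Rpl7a (-0.16). Quantile scaling ended the calls of Rpl15 (-0.093, limma adjusted p = 0.0735) and Rpl7a (-0.032, 0.584) in set 8. In set 7 they included Rpl24 (-0.40), Rpl22 (-0.38), Rpl21 (-0.35), Rpl37a (-0.34), Rpl7a and Rpl27a (both -0.33), Rpl28 (-0.30) and Rpl9 (-0.29).

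The stalk proteins Rplp0, Rplp1 and Rplp2 recruit the translation factors that hydrolyse GTP. Rplp0 had 2259, 2318 and 2313 CPM in CRISPRa, against 2370, 2315 and 2414 CPM in VP64 only of set 8, with groups that overlapped. Its levels in set 7 were 1853, 1940 and 1889 CPM in CRISPRa, all below the 2129, 2092 and 2003 CPM of VP64 only. Differences in set 8 were -0.04 for Rplp0, -0.07 for Rplp1 and -0.03 for Rplp2, none of them called. All 3 were lower in set 7, by 0.13 (limma adjusted p = 0.0101), 0.12 (0.0322) and 0.17 on the log2 scale.

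Among small-subunit members, Rps4x, an X-linked protein of the subunit body, had 2675, 2766 and 2675 CPM in CRISPRa, against 3117, 3021 and 3163 CPM in VP64 only of set 8. In set 7 it had 1767, 1717 and 1732 CPM in CRISPRa, against 2513, 2454 and 2375 CPM in VP64 only. No library overlapped within a set. Rps4x fell by 0.20 in set 8 (limma adjusted p = 0.00101) and by 0.49 in set 7 (4.92e-09). Quantile scaling gave -0.041 in set 8 (limma adjusted p = 0.528), which is no call, and -0.22 in set 7.

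Rack1, a scaffold on the head of the small subunit that docks signalling kinases, had 2942, 3111 and 3059 CPM in CRISPRa, against 3393, 3172 and 3351 CPM in VP64 only of set 8. Set 7 gave 1967, 1997 and 1949 CPM in CRISPRa, against 2508, 2411 and 2299 CPM in VP64 only. CRISPRa was lower in each set without overlap, by 0.12 in set 8 (limma adjusted p = 0.0469) and by 0.29 in set 7 (1.95e-05). Rpsa, a small-subunit protein that also serves as a laminin receptor, fell by 0.15 in set 8 and by 0.23 in set 7. Rps6, the substrate of S6 kinase, was called in set 7 (-0.20) but not in set 8 (-0.10, limma adjusted p = 0.0897). In set 8, Rps26 (-0.22) and Rps25 (-0.16) were also among the 12 calls with the smallest p, and quantile scaling ended that of Rps25 (-0.087, limma adjusted p = 0.1).

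**Figure D3:**
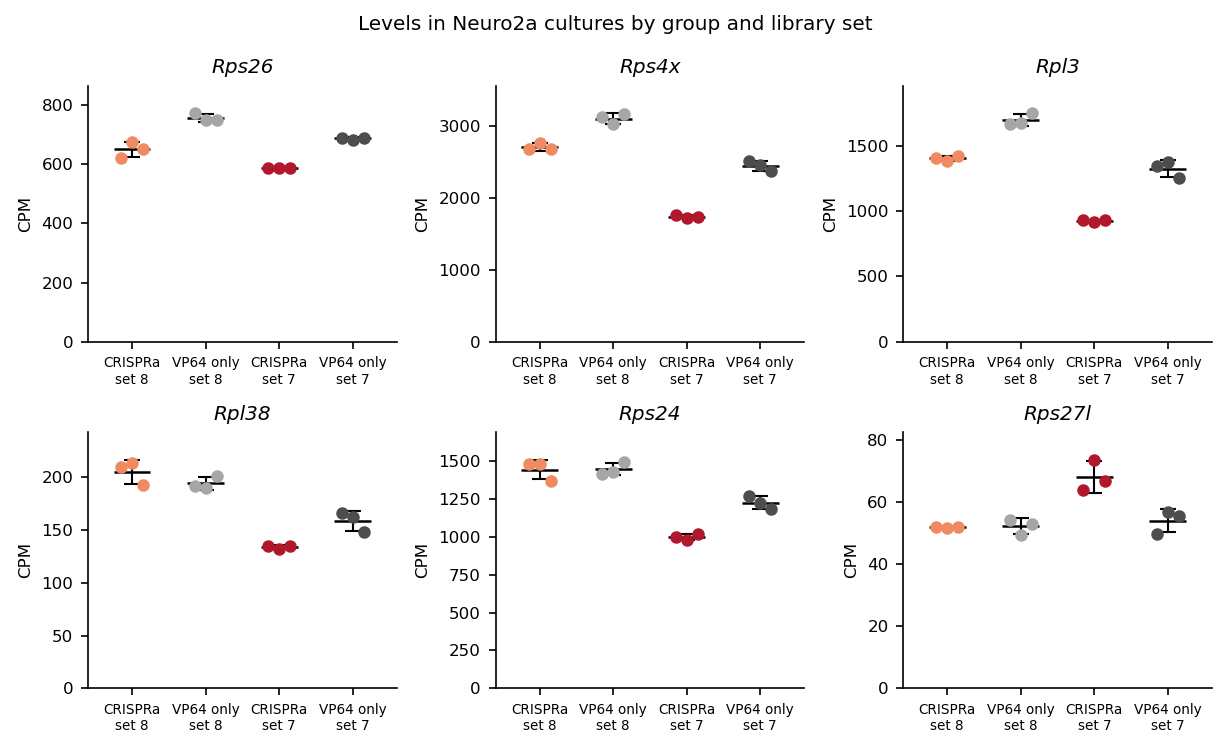
Level of Rps26, Rps4x, Rpl3, Rpl38, Rps24 and Rps27l in CPM, with 1 point per Neuro2a library, for CRISPRa and VP64 only of set 8 and of set 7; lines and whiskers give the mean and SD of 3 libraries. Rps26, Rpl3 and Rps4x stand lower in CRISPRa within both sets, Rpl38 and Rps24 within set 7 alone, and Rps27l stands higher in CRISPRa of set 7, at 63.7 to 73.4 against 49.6 to 56.6 CPM.

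Not all members were called lower. In set 8, 39 of 81 were, and 8 had positive differences with no call. Among those 8 were Rpl38 (0.08, limma adjusted p = 0.286), Rps27 (0.06), Rps29 (0.03), Rps23 (0.02) and Rpl34 (0.01). Of these, Rps27, Rps29, Rps23 and Rpl34 turned negative when 1 library or another was left out. In set 7, 7 members besides Rps27l were not called, among them Rps12 (-0.09), Rpl19 (-0.08), Rps27a and Rpl39l (-0.06 each), the annotated pseudogene Rpl6l (-0.05) and the muscle-type paralogue Rpl3l (-0.23), which had at most 1.52 CPM in any Neuro2a library.

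Rps27l (ENSMUSG00000036781), a near copy of Rps27 that is a p53 target in human cells, went the other way in set 7. It had 51.9, 51.5 and 52.0 CPM in CRISPRa, against 54.3, 49.2 and 52.8 CPM in VP64 only of set 8, with groups that overlapped. Those of set 7 were 63.7, 73.4 and 66.7 CPM in CRISPRa, all above the 49.6, 56.6 and 55.3 CPM of VP64 only, and it rose by 0.33 (SE 0.06, limma adjusted p = 0.000204). Over both sets its means were 59.9 ± 9.39 CPM in CRISPRa, against 53.0 ± 3.02 CPM in VP64 only (SD, n = 6 each; two-sided exact permutation p = 0.143, also after Benjamini-Hochberg adjustment over 5 such tests). That permutation took no account of the set, and the SDs include the difference between the sets.

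Its partner Rps27, a zinc-finger protein of the small subunit, had 281, 295 and 265 CPM in CRISPRa, against 270, 243 and 295 CPM in VP64 only of set 8. Set 7 gave 195, 184 and 196 CPM in CRISPRa, against 232, 229 and 210 CPM in VP64 only, apart and lower in CRISPRa. Rps27l accordingly made up 24.6 to 28.5% of the pair's CPM in CRISPRa, against 17.7 to 20.9% in VP64 only of set 7, against 14.9 to 16.4% in CRISPRa and 15.2 to 16.9% in VP64 only of set 8. Reads shared by such close copies could have been split or dropped by the authors' counting, so both genes' levels are uncertain to that extent.

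The difference between the sets was tested as an interaction. The change with CRISPRa was larger in set 8 than in set 7, meaning less negative, for 22 members, against 9.42% of all genes, and smaller for 1, Rps27l, against 12.3%. All 22 were among the 73 of 81 members called lower in set 7. The same set 7 libraries enter the interaction, so this overlap is not independent of it. The 22 comprised 17 of 49 large-subunit and 5 of 32 small-subunit members. The members' median was 0.13, against -0.05 over all genes, and 76 members had the lower estimate in set 7 (42.6% of all genes did).

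Rps4x had the smallest p, with a difference of differences of 0.30 (SE 0.06, limma adjusted p = 0.000826; 0.18 with quantile scaling). Rpl38, a protein that in the mouse is needed for translation of Hox mRNAs, had 209, 214 and 192 CPM in CRISPRa, against 192, 190 and 202 CPM in VP64 only of set 8. In set 7 it had 135, 132 and 135 CPM in CRISPRa, against 166, 162 and 148 CPM in VP64 only. It overlapped in set 8 and lay apart in set 7, with a difference of 0.32 (SE 0.07, limma adjusted p = 0.00248).

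Rps24, a small-subunit protein mutated in Diamond-Blackfan anaemia in humans, showed the same form. Its levels were 1483, 1482 and 1372 CPM in CRISPRa, against 1419, 1430 and 1496 CPM in VP64 only of set 8, and 999, 982 and 1018 CPM in CRISPRa, against 1270, 1226 and 1183 CPM in VP64 only of set 7. The groups overlapped in set 8 alone, and the difference was 0.29 (limma adjusted p = 0.0015). Rpl24, at the subunit interface, had 654, 671 and 659 CPM in CRISPRa, against 731, 669 and 713 CPM in VP64 only of set 8, and 418, 394 and 398 CPM in CRISPRa, against 569, 535 and 500 CPM in VP64 only of set 7 (0.31, limma adjusted p = 0.00174). Rpl10a, at the L1 stalk, had 1310, 1355 and 1303 CPM in CRISPRa, against 1320, 1297 and 1340 CPM in VP64 only of set 8, and 815 to 834 CPM in CRISPRa, against 1045, 994 and 952 CPM in VP64 only of set 7 (0.27, limma adjusted p = 0.0014). The number of members with a positive difference past the threshold was 12 without a filter, 39 with median-of-ratios scaling and 10 without a variance trend. It was 13 without VP64-only replicate 1 and 38 without VP64-only replicate 3.

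Levels also differed between the sets within each treatment. In VP64 only, 76 members were higher in set 8 than in set 7 and none was lower, against 19.9% of all genes called higher and 25.9% called lower. In 77 members each library of set 8 stood above each library of set 7 (24.2% of all genes). The members' median was 0.29, or 21.9% higher, against -0.03 over all genes. Rpl12, a protein at the base of the stalk, had 1221, 1293 and 1319 CPM in set 8 and 920, 876 and 836 CPM in set 7, and was 0.54 higher (limma adjusted p = 3.49e-09). Rpl23 (0.53), Rpl17 and Rack1 (both 0.46), Rps7 (0.44) and Rpl5 (0.43) followed. The 12 smallest p-values also included those of Rps10 (0.42), Rpl10a (0.40), Rps14 and Rps3 (both 0.38) and Rpl23a (0.36).

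In CRISPRa, 78 members were higher in set 8 than in set 7, against 21.3% of all genes, and Rps27l was lower by 0.39 (limma adjusted p = 2.81e-05), as were 33.4% of all genes. Their median was 0.41, or 33.0% higher, against -0.08 over all genes, and 79 did not overlap (23.6% of all genes). Rpl12 had 1234, 1298 and 1259 CPM in set 8 and 764, 780 and 739 CPM in set 7, a difference of 0.73 (limma adjusted p = 3.8e-11). Rpl24 (0.71), Rpl10a (0.68), Rpl23 (0.67), Rpl17 (0.65) and Rps4x (0.64) were close behind, with Rpl5 (0.63), Rack1 (0.62), Rpl3 (0.60), Rpl23a (0.55), Rps7 (0.53) and Rpl30 (0.50) after them. These contrasts use the same 12 libraries as those between CRISPRa and VP64 only.

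A pyrimidine run near the annotated start did not sort the members by their change. Only 43.8% of the members' windows held such a run, and a start used in the cells can differ from the annotated one. The split therefore does not separate mRNAs with a TOP tract from those without, and the part of the tract in the change was not tested. With a pyrimidine run within 5 bases of the start, the median log2 difference of CRISPRa from VP64 only was -0.10 in set 8 and -0.20 in set 7 (29 members). Without one it was -0.11 in set 8 and -0.23 in set 7 (31 members). Rps4x and Rps25, whose windows above hold no run, and Rpl15 and Rack1, whose windows hold long ones, were all called lower in both sets.

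Other genes of the translation apparatus are given by their counts, to be read against the share of all genes called lower and higher, 10.4% and 14.4% in set 8, and 17.0% and 29.7% in set 7. Of the 6 other ribosomal protein genes, 1 was lower in set 8, and 4 were lower and 1 higher in set 7. Rpl22l1, the paralogue of Rpl22, had 79.1, 77.2 and 70.1 CPM in CRISPRa, against 84.0, 80.3 and 83.0 CPM in VP64 only of set 8, and 28.4, 28.0 and 22.6 CPM in CRISPRa, against 52.6, 48.7 and 41.3 CPM in VP64 only of set 7. It fell by 0.84 in set 7, and Rpl7l1 rose by 0.27 there.

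Elongation factors and other genes with TOP mRNAs were mostly lower. Of 20, 15 were lower and none higher in set 8 (median -0.13), and 15 were lower and 2 higher in set 7 (median -0.25). They included Eef2, the translocation factor (-0.54 in set 7), Eif4b, a helicase cofactor (-0.33 in set 8 and -0.51 in set 7) and Hnrnpa1, an RNA-binding protein (-0.37 in set 8 and -0.56 in set 7). Of 13 hosts of small nucleolar RNAs, many of whose transcripts also carry TOP tracts, 3 were higher and none lower in set 8 (median 0.02), among them Snhg17 (0.60), Snhg15 (0.48) and Zfas1 (0.16). In set 7, 7 were lower and 2 higher (median -0.28), with Snhg1 and Snhg5 both at -0.64 and Snhg15 at 0.44.

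Genes for factors that build ribosomes were higher more often than lower where called. Of 30 biogenesis genes, 15 were higher and 4 lower in set 8, and 18 were higher and 2 lower in set 7. Rrp12, an exporter of pre-ribosomes (0.54), Heatr1, a factor in rRNA transcription (0.40), and Ubtf, the RNA polymerase I factor (0.28), rose in set 8. Bop1, a processing factor of the large subunit (0.54), and Nhp2, a component of box H/ACA particles (0.41), rose in set 7, and Grwd1, a histone chaperone that acts in ribosome assembly, rose in both (0.44 and 0.62).

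Of 15 genes of the mTOR pathway and TOP control, 4 were higher (26.7%) and 3 lower (20.0%) in set 8, and 4 were higher (26.7%) and 4 lower (26.7%) in set 7, where the higher share is below that of all genes. Mtor itself rose by 0.49 in set 8 and by 0.50 in set 7, Larp1, which binds TOP tracts, fell by 0.40 in set 7, and the translational repressor Eif4ebp1 fell by 0.42 there. The mitochondrial ribosomal protein genes, which serve a separate ribosome, were 4 higher and 7 lower of 78 in set 8 (median 0.00), and 49 higher (62.8%) and none lower in set 7 (median 0.22), with Mrpl17 at 0.72 and Mrps2 at 0.66.

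**Figure D4:**
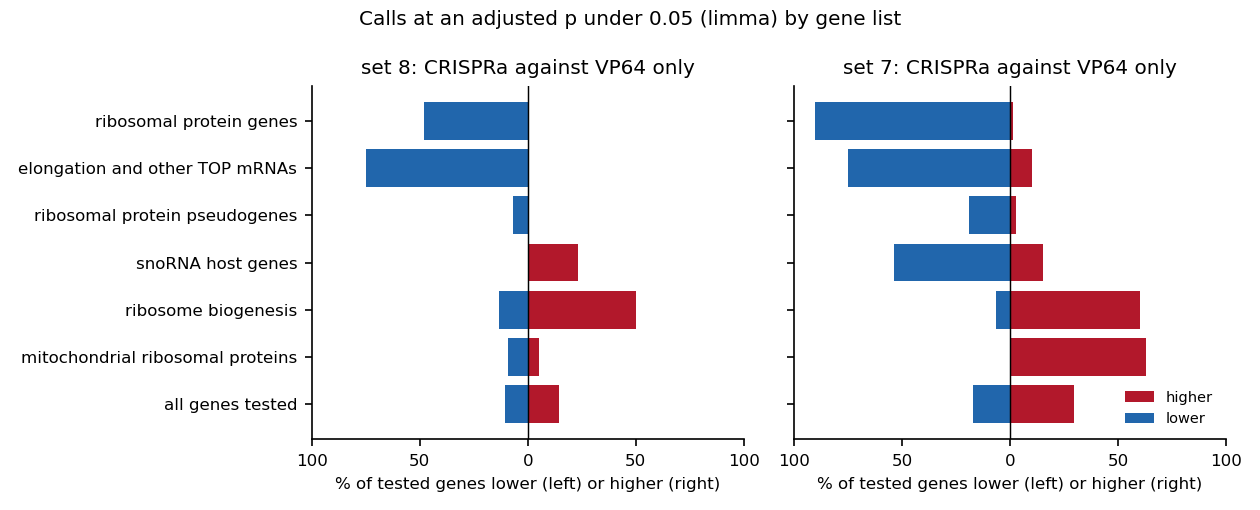
Percent of the tested genes of each list called lower (bars to the left) or higher (bars to the right) in CRISPRa than in VP64 only, at a limma adjusted p under 0.05, for set 8 and set 7. The members (39 of 81 in set 8 and 73 of 81 in set 7) and the TOP genes (15 of 20 in each) lie mostly to the left, the biogenesis genes mostly to the right, and the mitochondrial ribosomal proteins reach far right in set 7 alone (49 of 78).

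In NeuN-sorted cortical nuclei the members took a far smaller share of the library. It was 0.270, 0.242 and 0.235% in Het CRISPRa, 0.351, 0.289 and 0.243% in Het and 0.306, 0.294 and 0.230% in WT. The 3 groups overlapped, with the highest share in Het replicate 1 and the lowest in WT replicate 3. Mitochondrially encoded transcripts were uneven over the same libraries, at 0.700, 0.748 and 0.792% in Het CRISPRa, 1.77, 1.35 and 0.852% in Het and 1.00, 1.17 and 0.741% in WT. Within Het, and among the WT libraries too, replicate 3 was lowest in both shares. The sadCas9-VP64 transcript had 4.09 to 7.12 CPM in Het CRISPRa and was listed at 0 in Het and WT.

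Summed markers of other cells were low beside those of neurons, and no marker was at 0. Neuronal markers summed to 2869 to 3182 CPM in Het CRISPRa, 2741 to 2885 CPM in Het and 2940 to 3118 CPM in WT, so that Het lay below WT. Astrocyte markers had 247 to 272 CPM in Het CRISPRa, 228 to 281 CPM in Het and 246 to 271 CPM in WT, with overlap. Oligodendrocyte markers (99.4 to 122 CPM over all 9 libraries) and microglial markers (7.77 to 18.7 CPM) overlapped too. Vascular markers had 3.68 to 4.28 CPM in Het CRISPRa, below the 4.83 to 6.30 CPM of Het, and 3.46 to 5.02 CPM in WT. The part of these and of the mitochondrial share in the members' values was not tested.

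Members were ordered differently in the 2 sources when levels were divided by transcript length. In WT nuclei the highest were Rpl10a at 163 ± 11.1, Rpl22 at 130 ± 4.55, Rpl41 at 117 ± 25.1, Rps18 at 101 ± 22.3 and Rpl9 at 100 ± 13.9 CPM per kb (SD, n = 3). In VP64-only Neuro2a they were Rps4x at 2845 ± 373, Rpl10 at 2375 ± 291, Rpl13 at 2273 ± 313, Rpl8 at 2012 ± 127 and Rack1 at 1974 ± 347 CPM per kb (SD, n = 6). Rack1 ranked above Rpl8 in set 8 (2285 ± 81.1 against 2122 ± 51.7, n = 3) and below it in set 7 (1663 ± 72.3 against 1902 ± 35.5, n = 3). Apart from the leaders, Rpl10a and Rps4x, neighbours among these differed by less than the larger of their SDs, which in Neuro2a include the difference between the sets. The lowest in WT nuclei were Rpl39 at 7.03, Rps27l at 3.66, Rps20 at 2.97 and Rpl3l at 0.779 CPM per kb, with Rpl39l listed at 0. In VP64-only Neuro2a the lowest were Rps20 and Rpl29 at 143 each, Rps27l at 106, Rpl39l at 38.4 and Rpl3l at 0.606 CPM per kb. The value of Rps20 rests on an annotated transcript of 3706 bases, the longest of any member.

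A member's level per kb in WT nuclei was a median of 3.68% of that in VP64-only Neuro2a, over 80 members with a length. Rpl39l, listed at 0 in WT, aside, Rplp0 (0.931%) and Rps4x (0.926%) stood lowest, while Rpl3l (128%), Rpl29 (23.2%) and Rpl35a (17.1%) stood highest. The 2 tables were normalised separately, so these ratios compare shares of different libraries. The large-subunit members' CPM was 1.89 to 2.18 times that of the small-subunit members in the nuclei.

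Paralogues differed between the sources too. Rpl39l was listed at 0 in every Het and WT library and had at most 0.0574 CPM in Het CRISPRa, which is under the floor of 3 reads, whereas it made up 15.2 to 20.1% of its pair with Rpl39 in Neuro2a. Rps4l had 1.82 to 4.21 CPM in the nuclei but no more than 0.13 CPM in Neuro2a. Rps27l made up 8.34 to 9.92% of its pair in Het CRISPRa, 5.50 to 9.14% in Het and 5.84 to 8.18% in WT.

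No member passed the threshold in any comparison of the cortical groups, which share their libraries pairwise, as fitted without a block and with all libraries. Replicates were looser than in the cells, with median coefficients of variation of 11.2% in Het CRISPRa, 20.0% in Het and 18.0% in WT. Between Het CRISPRa and Het, limma called 0 of 81 members (0.0369% of 18967 genes were lower, 0.00527% higher), and 72 differences lay below 0. An unadjusted p under 0.05 was reached by 8 members (9.88%), against 996 of the 18967 genes. The members' median was -0.25, against 0.04 over all genes, but it was -0.11 without Het replicate 1. In 11 members (13.6%) the Het CRISPRa libraries lay wholly below Het, against 4.61% of all genes: Rpl15, Rps6, Rpl12, Rpl24, Rps23, Rps28, Rps14, Rpl7a, Rpl36, Rps19 and Rpl39.

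Rpl15 (ENSMUSG00000012405), a large-subunit protein needed for pre-rRNA processing, stood apart from the others in size. It had 29.0, 32.2 and 25.0 CPM in Het CRISPRa, 67.7, 57.9 and 45.6 CPM in Het and 42.6, 33.8 and 28.2 CPM in WT. Het lay above both other groups, and Het CRISPRa overlapped WT. The log2 difference of Het CRISPRa from Het was -0.97 (SE 0.18, limma adjusted p = 0.106) and that of Het from WT was 0.71 (SE 0.18, limma adjusted p = 0.875).

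Means of Rpl15 were 28.7 ± 3.58 CPM in Het CRISPRa, 57.1 ± 11.1 CPM in Het and 34.9 ± 7.25 CPM in the WT nuclei (SD, n = 3 each). Two-sided exact permutation tests gave p = 0.1 for Het CRISPRa against Het and for Het against WT, the smallest that 3 against 3 allows, and 0.125 after adjustment over the 5 tests. The authors' deposited table gives Rpl15 a log2 fold change of -1.02 with an adjusted p of 2.34e-05 for Het CRISPRa against Het, the only member it calls there (0.262% of its genes are lower), and 0.76 with an adjusted p of 0.19 for Het against WT. Rpl15 passed in limma without Het replicate 3 (adjusted p = 0.0261) and with the replicate number as a block (adjusted p = 0.00992). The labels do not pair mouse replicates, and the deviations of same-numbered Het CRISPRa and Het libraries had correlations of -0.084 to 0.024. Nkiras1, which is read from the opposite strand beside Rpl15, had 57.7, 50.7 and 58.2 CPM in Het CRISPRa, 48.8, 54.1 and 56.3 CPM in Het and 61.8, 60.4 and 53.2 CPM in WT, and all 3 groups overlapped.

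The remaining members were closer together. Rps6 had 22.5, 19.9 and 20.9 CPM in Het CRISPRa, 31.1, 25.1 and 26.2 CPM in Het and 26.3, 28.5 and 21.3 CPM in WT, so that Het CRISPRa lay below Het and overlapped WT. Its difference from Het was -0.37, with -0.45 for Rpl24, -0.41 for Rps23 and -0.28 for Rpl12, none of them called. Rack1 had 139, 124 and 125 CPM in Het CRISPRa, 175, 152 and 131 CPM in Het and 154, 140 and 121 CPM in WT, and all groups overlapped. On the other side, Rps15a (0.32), Rps27l (0.25), Rps24 (0.21), Rps13 (0.07) and Rpl10a (0.06) had positive differences without a call.

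Between Het CRISPRa and WT, limma called 0 of 81 (0.0% of all genes lower, 0.00527% higher), and the authors' deposited table calls none. An unadjusted limma p under 0.05 was reached by 1 member (1.23%), against 335 of the 18967 genes. The median was -0.17, against -0.02 over all genes, with 77 below 0. It was -0.09 without WT replicate 1 and -0.32 without WT replicate 3. The groups lay apart, with Het CRISPRa lower, for 4 members (4.94%), close to the 4.46% of all genes: Rplp1 (-0.54), Rpl36 (-0.45), Rps23 (-0.38) and Rpl35a (-0.27). Rplp1 had 9.02, 8.06 and 6.08 CPM in Het CRISPRa, 13.0, 10.5 and 7.66 CPM in Het and 12.5, 11.8 and 9.84 CPM in WT, and Het overlapped both. The 4 positive differences were those of Rpl6l (0.31), Rplp0 (0.11), Rps2 (0.06) and Rps16 (0.02), and the last 3 turned negative without 1 library or another.

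Between Het and WT, limma called 0 of 81 (0.0% of all genes in either direction), and the authors' deposited table calls none. An unadjusted limma p under 0.05 was reached by 2 members (2.47%), against 951 of the 18967 genes. The median was 0.11, against -0.05 over all genes, and it turned to -0.05 without Het replicate 1 and likewise without WT replicate 3. Rpl15 alone lay wholly above WT (1.23% of members, against 3.37% of all genes). Wholly below WT lay 4 members (4.94%), a smaller share than the 7.3% of all genes: Rps15a (-0.43), Rps24 (-0.39), Rps13 (-0.20) and Rpl7 (-0.16). Rps24 had 67.0, 61.3 and 47.7 CPM in Het CRISPRa, 51.0, 48.9 and 50.8 CPM in Het and 64.1, 65.5 and 68.3 CPM in WT, so that Het lay below WT while Het CRISPRa overlapped both. Rps15a had 47.3, 51.0 and 27.9 CPM in Het CRISPRa, 25.3, 36.9 and 37.2 CPM in Het and 37.8, 44.3 and 51.3 CPM in WT. Its Het libraries all lay below WT, and Het CRISPRa replicate 3 fell among the Het values. None of the other lists of translation genes had a member called in any cortical comparison.

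**Figure D5:**
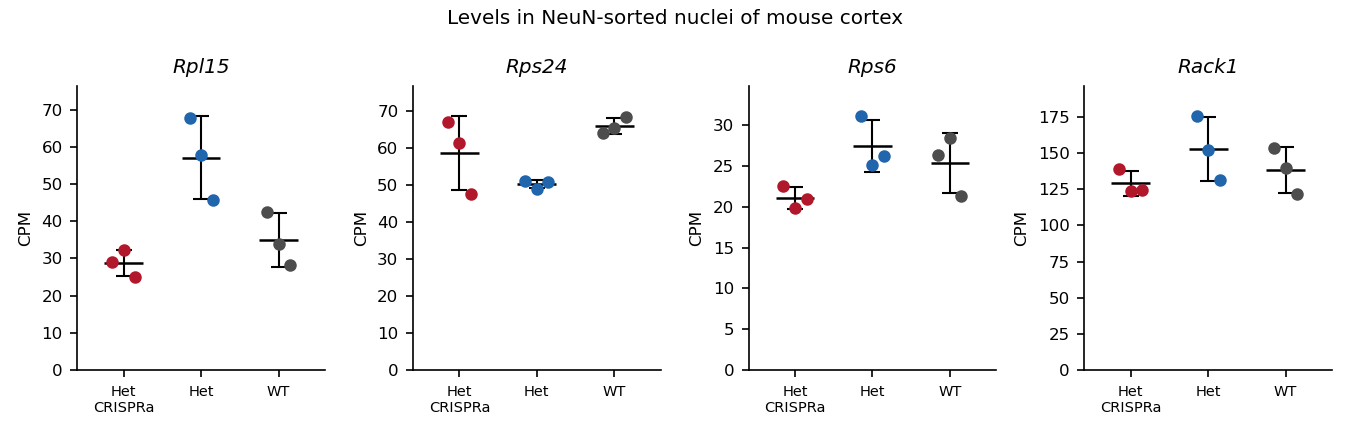
Level of Rpl15, Rps24, Rps6 and Rack1 in CPM, with 1 point per cortical library, for Het CRISPRa, Het and WT; lines and whiskers give the mean and SD of 3 libraries. Rpl15 in Het (45.6 to 67.7 CPM) stands above Het CRISPRa (25.0 to 32.2 CPM) and WT (28.2 to 42.6 CPM), Rps24 in Het lies below WT, and the groups of Rack1 overlap.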

How the data were processed

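Per the labels' protocols, RNA came from transfected Neuro2a cells and from NeuN-sorted cortical nuclei, with polyA enrichment. Tools named in the submitters' processing notes are DESeq2 1.44, featureCounts, R 4.4 and STAR 2.7.8a. The deposited values are CPM per gene, and the authors' deposited table gives a log2 fold change and an adjusted p-value per gene for their own comparisons. The deposited Wald statistic, a score the authors obtained with DESeq2 per the file headers, was not used. CPM columns did not come out as whole reads (70.8 to 73.2% of all Neuro2a and 79.9 to 82.4% of all cortex values lay within 0.01 of a whole read, and 11.1 to 17.1% and 32.1 to 42.0% of the members' values), so no count test was run here. Depth was read from the smallest CPM step.

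The tables were tested with limma 3.58.1 in R 4.3.3 (moderated linear model with a variance trend) on log2(CPM + 0.5), which understates changes of low genes. Genes needed 0.5 CPM in at least 6 Neuro2a or 3 cortex libraries, which left 14398 and 18967 genes; p-values were adjusted over all of them (Benjamini-Hochberg, threshold 0.05). Neuro2a was fitted with 2 groups, and with 4 groups for the contrasts by set. A floor of 3 reads is 0.143 to 0.193 CPM and covers counting error only. Transcript lengths are from GENCODE M21, and no coordinates of the submitters' build were used. Scripts were tested on simulated data, and other pseudocounts, filters, scalings, blocks and left-out libraries were tried. Python 3.11.15, numpy 2.4.6, pandas 2.3.3, scipy 1.17.1 and matplotlib 3.10.9 served for the rest.

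Members and gene lists were chosen with earlier results of these data known. Named members are the 12 smallest p-values per direction where any passed, and otherwise the 5 smallest, together with members discussed by role; a few genes that this would name are not reported here. Same-numbered Neuro2a libraries deviated together (correlations 0.305 to 0.499). Within a set the correlations were -0.0708 to 0.0229, so the pairing follows the set.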

Additional observations from a re-analysis of the deposited data

Results flagged for a closer look

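In 13 of the members named by their p-value the change with CRISPRa differed between Neuro2a set 8 and set 7 by the interaction test in limma (adjusted p of 0.000826 to 0.0122). Values are the change in set 8 minus the change in set 7, on the log2 scale. The difference was negative for Rps27l, at -0.34. It was positive for Rpl38 at 0.32, Rpl24 at 0.31, Rps4x at 0.30, Rps24 at 0.29, Rpl37 at 0.28, Rpl10a at 0.27, Rpl3 at 0.25, Rps23 at 0.23, Rpl21 and Rpl37a at 0.22 each, Rpl30 at 0.21 and Rpl27a at 0.20. The call of Rpl37a was lost with quantile scaling (0.16, adjusted p = 0.0822) and without a variance trend (0.0625), and that of Rps23 without a filter (0.0514) or without a trend (0.0632). All 12 with a positive difference were among the 73 of 81 members called lower in CRISPRa within set 7, whose libraries enter both tests. The sets also differ in their sadCas9-VP64 level, whose part in the difference was not tested.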

How the results depend on the processing

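The median of the members kept its sign in every Neuro2a setting. In the pooled comparison the 2 members lower became 1 without a filter, with quantile scaling or without a variance trend, 52 with the replicate block, 60 with the set as a covariate, and 1 to 3 with a library left out. In set 8 the 39 lower became 24 without a filter, 17 with quantile scaling, 23 without a trend and 24 to 37 with a library left out. In the interaction the 22 higher became 12 without a filter, 39 with median-of-ratios scaling, 10 without a trend and 13 to 38 with a library left out; the replicate block gave 19. With quantile scaling 2 members were higher in set 7, 2 were lower in the interaction, and 2 were lower in set 8 than in set 7 within CRISPRa. Rpl15 between Het CRISPRa and Het was the 1 member called lower with the replicate block (adjusted p = 0.00992) or without Het replicate 3, so that leaving a library out gave 0 to 1. Same-numbered mouse libraries had correlations of -0.110 to 0.109 between Het CRISPRa and the other groups. Between Het and WT the correlations were 0.337 for replicate 1, 0.034 for replicate 2 and 0.418 for replicate 3.

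Signs turned for small, uncalled values. In set 8, leaving a library out gave -0.012 to 0.13 for Rps27, -0.019 to 0.055 for Rps23, -0.016 to 0.12 for Rps29 and -0.041 to 0.046 for Rpl34. Median-of-ratios scaling gave -0.011 for Rps23, -0.0001 for Rps29 and -0.022 for Rpl34, and quantile scaling gave -0.0073 for Rpl34. Quantile scaling gave 0.0086 for Rps27l between sets in VP64 only. Between Het CRISPRa and Het, leaving a library out gave -0.030 to 0.17 for Rps13. Between Het CRISPRa and WT it gave -0.094 to 0.28 for Rplp0, -0.075 to 0.17 for Rps2 and -0.10 to 0.15 for Rps16. The cause of these changes was not tested.

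Scaling moved the share of all called genes that were higher: 66.6% in the pooled comparison against 50.2% with median-of-ratios and 51.0% with quantile scaling, 58.0% against 46.0 and 47.9% in set 8, 63.6% against 48.4 and 49.0% in set 7, 43.3% against 57.0 and 51.8% in the interaction, and 39.0% against 50.4 and 49.7% between sets in CRISPRa. CPM is relative, so a lower share of ribosomal protein mRNA need not mean a lower amount per cell, which these values do not give.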

Other observations

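Ribosomal protein pseudogenes, which resemble the members' mRNAs, held CPM equal to 2.59 to 2.89% of the members' sum in Neuro2a and 0.960 to 1.17% in cortex. Of 200 listed, 73 were tested in Neuro2a. In CRISPRa 5 were lower (6.85%) and none higher in set 8, and 14 were lower (19.2%) and 2 higher in set 7, where 10.4% and 17.0% of all genes were lower. Rpl36al made up 50 to 60% of its pair with Rpl36a in Neuro2a. Rpl22l1 made up 26.4 to 37.1% of its pair with Rpl22 in cortex. In Neuro2a set 8 that share was 9.49 to 10.2% in CRISPRa and 9.19 to 9.84% in VP64 only. In Neuro2a set 7 it was 4.46 to 5.66% in CRISPRa and 6.59 to 7.50% in VP64 only.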
